A study of Mus musculus with 11 samples.

Results

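The genes described here encode solute carriers that move amino acids, hexoses and monocarboxylates across membranes. They were taken by symbol from the deposited table, as every numbered gene of the Slc1, Slc2, Slc3, Slc6, Slc7, Slc16, Slc36, Slc38 and Slc43 families (such as Slc1a5), with symbols that end in a further letter left out. Of 85 such identifiers, 77 were above 0 in at least 1 library and are the members, out of 17380 genes above 0 among 23071 identifiers. The other 8, Slc1a6, Slc1a7, Slc6a2, Slc6a7, Slc6a11, Slc6a14, Slc7a13 and Slc38a3, were listed at 0 in every library.

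RNA was sequenced from 11 libraries of C57BL/6 mice. The 5 leukemia libraries held leukemic B cells of Pax5+/- x Ebf1+/- mice, each from the lymph node cell suspension of 1 mouse, flash frozen. The 3 Ebf1+/- libraries held progenitor B cells purified on columns from bone marrow, pooled from 3, 6 and 7 mice, and the 3 wild-type libraries held the same kind of cells pooled from 3, 7 and 6 mice. Every leukemia therefore carried the Ebf1+/- genotype of the middle group plus Pax5+/-, and the labels name no age, Cre or transgene. Genotype, leukemic state, tissue, preparation and pooling differed together between leukemia and the progenitor groups and cannot be told apart.

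Growing lymphocytes import essential amino acids, glutamine and glucose and export lactate, and each of these steps is served by several carriers. Many Slc7 carriers are light chains that reach the cell surface only when joined to the heavy chain made by Slc3a2 (CD98), and exchange 1 amino acid for another, so that glutamine taken up by sodium-coupled carriers such as Slc1a5 and the Slc38 family can be traded for leucine. Slc36a1 and Slc38a9 sit largely on lysosomes, where amino acid supply is read out to the growth kinase mTORC1. The Slc16 carriers move lactate, pyruvate and some amino acids, and the Slc2 carriers move hexoses down their gradients.

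Levels are given in FPKM, reads per kilobase of gene scaled to the reads of the library, and so can be compared between genes. Library totals ran from 8506680 to 15313920 reads. Marker genes of other blood cells moved with the groups. Summed over 13 granulocyte markers, the level was 3.86 to 8.69 FPKM in leukemia, 2710 to 10600 in Ebf1+/- and 628 to 3390 in wild type, and 13 of 13 were called lower in leukemia than in wild type, with Cebpe at 0 in leukemia. For 8 megakaryocyte and platelet markers the sums were 0.416 to 1.63 FPKM in leukemia, 144, 275 and 4230 in Ebf1+/- libraries 1 to 3, and 78.0, 262 and 479 in wild-type libraries 1 to 3, with 8 of 8 lower in leukemia. For 10 erythroid markers they were 57.1 to 148 FPKM in leukemia, 509, 501 and 1250 in Ebf1+/-, and 239, 655 and 1250 in wild type, with 7 of the 8 tested lower in leukemia, Car1 at 0 in leukemia, and Hbb-bt and Hba-a1 listed at 0 in every library. Car2 alone, which was not called over wild type, made 56.5 to 147 FPKM of the leukemia sum, and each other erythroid marker was under 1 FPKM in each leukemia. Sums over 6 monocyte markers were 57.0 to 152, 404 to 1720 and 330 to 551 FPKM in leukemia, Ebf1+/- and wild type, and sums over 8 T cell markers were 57.8 to 111, 34.4 to 54.9 and 26.8 to 37.0 FPKM, with 2 of 4 monocyte markers tested lower and 1 of 7 T cell markers, Lck, higher in leukemia than in wild type. Lck alone was at 51.7 to 106 FPKM in leukemia, 14.9 to 23.6 in Ebf1+/- and 12.4 to 18.9 in wild type, while the median log2 fold change of the T cell markers tested was -0.50 over wild type and -1.05 over Ebf1+/-, where 3 of 8 were called lower. Sums over 7 lymph node stromal markers were 25.3 to 42.8, 50.2 to 83.0 and 74.6 to 139 FPKM, with 3 of 3 tested lower in leukemia and Pdpn, Ccl19 and Ccl21a at 0 in every library. Pecam1 alone made 25.2 to 42.4 FPKM of the leukemia sum, and each other stromal marker was at most 0.280 FPKM in each leukemia. All 10 B lineage markers were above 0 in each group, and their sums were 3310 to 4500 FPKM in leukemia, 5300, 4080 and 1830 in Ebf1+/- libraries 1 to 3, and 4300, 3470 and 2490 in wild-type libraries 1 to 3. Single markers differed in both directions, with 2 of the 10 called higher and 3 lower in leukemia than in wild type. Against Ebf1+/- 0 of the 10 were called. Overlapping sums do not show that the B lineage cells of the groups were alike. Library 3 of Ebf1+/- stood apart by its platelet sum, and Ebf1+/- library 2 was closer to wild-type library 2 (r = 0.989 across genes) than any 2 libraries of 1 group were to each other (at most 0.984). In bulk RNA, fewer cells of a type and less RNA per cell cannot be told apart.

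The first comparison asked how the transporters of leukemic cells differed from those of normal progenitor B cells. Leukemias carried more of the CD98 heavy chain and of several carriers for large neutral and cationic amino acids, led by Slc7a6, and less Slc1a5, Slc38a5, Slc36a4, Slc16a3 and Slc16a10. Of the 77 members, 32 averaged 1 FPKM or more across the leukemia and wild-type libraries and were tested. Limma on log2(FPKM + 1), adjusted over all genes tested and called at an adjusted p under 0.05, called 9 higher and 10 lower in leukemia. That is 59.4% of the tested members, where 44.8% of all 10968 genes tested were called, 20.7% higher and 24.1% lower. Changes of at least 2-fold on that scale were called for 3 members higher and 7 lower, against 6.62% and 8.56% of all genes. The median log2 fold change of the 32 was 0.09, against -0.04 for all genes, and their median size regardless of sign was 0.60, against 0.38. The values of the 5 leukemias and the 3 wild-type pools did not overlap for 17 of the 32 (53.1%), against 46.3% of all genes. Nothing says that the pools or mice were separate in time, so p-values measure the spread between these libraries only.

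**Figure D1:**
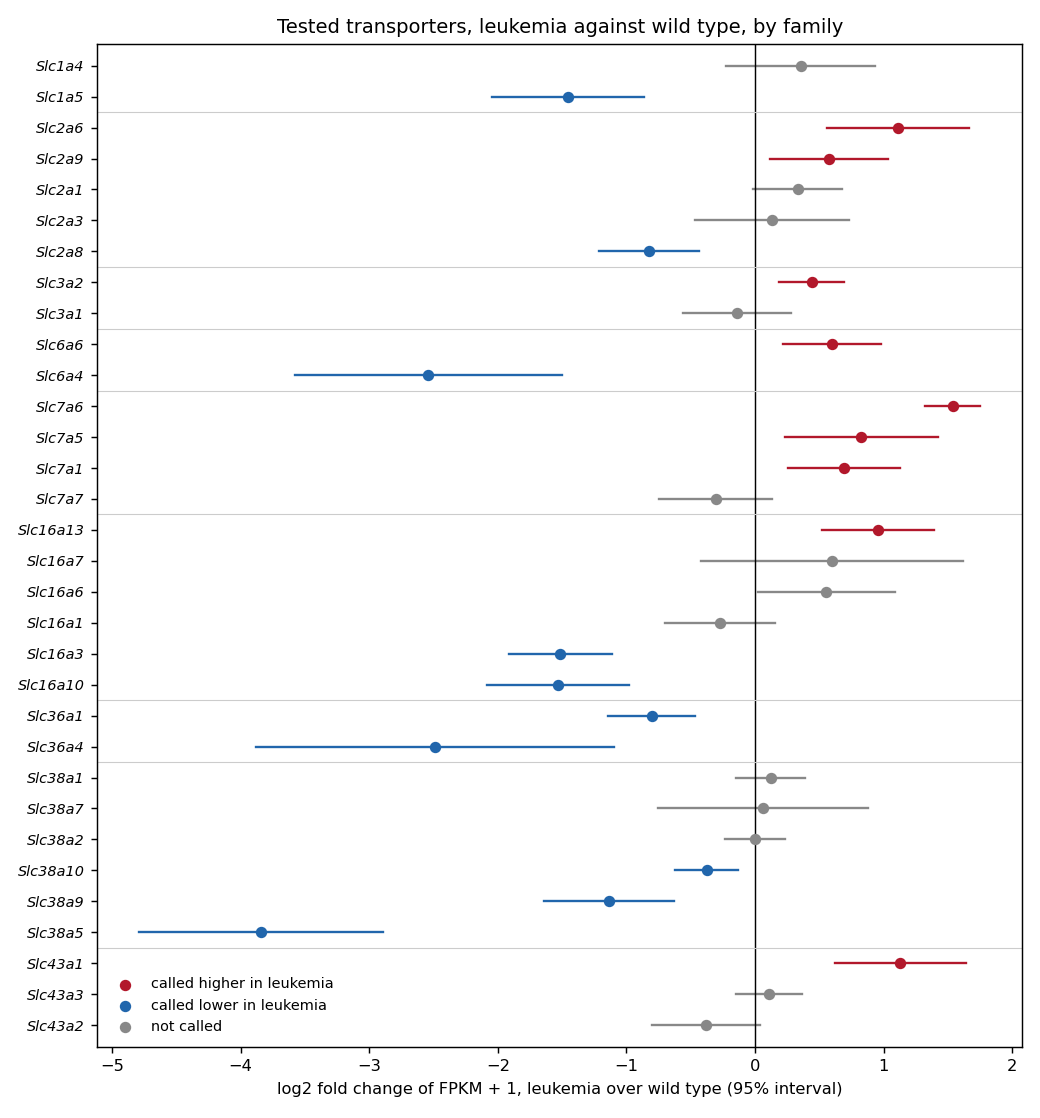
Log2 fold change of FPKM + 1 in leukemia over wild type (horizontal axis) with its 95% interval from limma, for the 32 tested transporters in family order, 5 leukemia and 3 wild-type libraries. Red points are the 9 called higher and blue points the 10 called lower; Slc7a6 has the narrowest interval of the called members, and Slc38a5 and Slc6a4, whose leukemia libraries hold 0 or 1 read, have values that depend on the added 1 FPKM.

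The CD98 heavy chain and 2 of its 3 tested light chains, Slc7a5 and Slc7a6, rose in leukemia. Slc7a6 (chromosome 8, 106168857 to 106198706, plus strand, GRCm38) makes y+LAT2, which exchanges cationic for neutral amino acids. It stood at 31.8, 28.5, 27.9, 27.65 and 27.4 FPKM in leukemias 1 to 5, at 10.5, 12.9 and 9.54 FPKM in Ebf1+/- libraries 1 to 3, and at 9.595, 9.925 and 8.18 FPKM in wild-type libraries 1 to 3. Every leukemia lay above every progenitor library, and the wild-type and Ebf1+/- ranges overlapped. The mean was 28.6 ± 1.80 FPKM in leukemia (SD, n = 5) and 9.23 ± 0.93 in wild type (n = 3), a log2 fold change of 1.54 (SE 0.10, limma adjusted p = 1.26e-05), and it was called under all 16 alternatives. The promoters of Slc7a6 and of 3 other members that changed by more than 2-fold are shown from RefSeq (GRCm38.p6), 250 bases before to 50 after the start, since they are 2 members that rose and 2 that fell. They were chosen after their values were seen. Capitals mark CACGTG, the E-box that Myc and the lysosomal factor Tfeb can bind. It was searched on both strands, for which it reads alike.
Slc7a6, chr8:106168604-106168903, plus strand: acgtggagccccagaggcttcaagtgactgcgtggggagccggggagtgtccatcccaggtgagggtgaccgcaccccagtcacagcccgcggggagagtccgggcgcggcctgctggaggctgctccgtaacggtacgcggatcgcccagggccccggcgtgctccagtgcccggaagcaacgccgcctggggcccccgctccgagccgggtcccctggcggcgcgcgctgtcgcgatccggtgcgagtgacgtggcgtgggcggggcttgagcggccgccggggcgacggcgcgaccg
Slc43a1, chr2:84840073-84840372, plus strand: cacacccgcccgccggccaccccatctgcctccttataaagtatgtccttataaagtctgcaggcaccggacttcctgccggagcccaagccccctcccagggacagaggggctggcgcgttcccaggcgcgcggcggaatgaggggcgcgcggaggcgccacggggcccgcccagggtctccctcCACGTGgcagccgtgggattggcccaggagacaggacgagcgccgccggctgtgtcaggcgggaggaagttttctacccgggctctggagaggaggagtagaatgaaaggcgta
Slc38a5, chrX:8271131-8271430, plus strand: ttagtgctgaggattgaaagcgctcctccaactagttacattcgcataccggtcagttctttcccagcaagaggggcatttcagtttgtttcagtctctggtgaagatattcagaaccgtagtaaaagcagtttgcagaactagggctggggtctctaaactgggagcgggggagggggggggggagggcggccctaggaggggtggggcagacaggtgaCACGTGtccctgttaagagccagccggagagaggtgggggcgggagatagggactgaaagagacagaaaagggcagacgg
Slc36a4, chr9:15709488-15709787, plus strand: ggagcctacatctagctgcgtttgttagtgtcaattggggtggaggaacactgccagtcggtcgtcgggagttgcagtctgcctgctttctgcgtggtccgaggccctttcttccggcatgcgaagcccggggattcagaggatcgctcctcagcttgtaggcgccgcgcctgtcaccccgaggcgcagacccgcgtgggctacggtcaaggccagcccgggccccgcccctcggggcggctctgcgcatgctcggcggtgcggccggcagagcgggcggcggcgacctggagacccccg

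The E-box lay 64 bases before the start of Slc43a1 and 30 bases before that of Slc38a5, a gene that rose and a gene that fell, and its letters were not in the windows of Slc7a6 and Slc36a4. Promoters were found for 56 members (77 windows), of which 8 windows held CACGTG (10.4%), against 7.15% of all 32851 promoter windows of the table. Among the 23 tested members with a promoter, those with the E-box were Slc16a1, Slc36a1, Slc38a5, Slc38a7 and Slc43a1. The core of the amino acid response element, searched as TGATGNAAN on both strands, was in 4 of the 77 windows (5.19%) and in 3.95% of all, at Slc1a4, Slc7a7 and Slc7a11. These are letter matches, not sites of binding. Slc7a5 had no window in the table.

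Slc3a2 (chromosome 19, 8706882 to 8723369), the heavy chain itself, stood at 36.3, 38.6, 34.1, 39.5 and 34.9 FPKM in leukemias 1 to 5, at 29.0, 26.8 and 32.7 in Ebf1+/-, and at 22.3, 29.3 and 29.2 in wild type. The leukemia values all lay above the progenitor values, by a small margin over Ebf1+/- library 3. The log2 fold change against wild type was 0.44 (SE 0.11, limma adjusted p = 0.0112). With the replicate number as a block the call was lost (0.43, limma adjusted p = 0.0619). Slc7a5 (chromosome 8, 121881150 to 121907694), the LAT1 light chain for leucine and other large neutral amino acids, stood at 52.3, 61.9, 44.4, 56.1 and 52.3 FPKM in leukemia, at 26.2, 41.8 and 49.3 in Ebf1+/-, and at 16.65, 35.1 and 43.5 in wild type. Its lowest leukemia was just above its highest wild-type pool, and the pools themselves differed more than the leukemias did. The log2 fold change was 0.83 (SE 0.26, limma adjusted p = 0.0302), and 0.43 (adjusted p = 0.046) without wild-type library 1, the pool with the lowest erythroid sum and the highest B lineage sum in wild type. Its part in the result was not tested. The call was lost without leukemia 1 (adjusted p = 0.0511), 2 (0.0607) or 4 (0.0538) and with the replicate number as a block (0.0862). Over 16 alternatives the adjusted p ran from 0.0116 to 0.0862.

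Slc7a7, the y+LAT1 light chain, averaged 5.61 ± 1.52 FPKM in leukemia and 7.02 ± 0.84 in wild type and was not called (log2 fold change -0.31, 95% interval -0.75 to 0.14). Of its exon bases 7.00% are shared with Oxa1l on the other strand, whose reads cannot be told apart from it without strand. Slc7a8, the LAT2 light chain, stayed under 0.06 FPKM in each leukemia and under 0.5 FPKM elsewhere, and Slc7a11, the cystine carrier xCT, reached at most 0.103 FPKM in any library. Summed over Slc7a5, Slc7a6, Slc7a7, Slc7a8, Slc7a10 and Slc7a11, the light chains came to 87.8 ± 6.50 FPKM in leukemia (SD, n = 5), 56.5 ± 10.8 in Ebf1+/- (n = 3) and 48.3 ± 13.9 in wild type (n = 3). Per FPKM of heavy chain this was 2.39 ± 0.10, 1.92 ± 0.38 and 1.77 ± 0.29 in the same order, with the leukemias at 2.26 to 2.51, the Ebf1+/- libraries at 1.52 to 2.28, which overlap the leukemias, and the wild-type pools at 1.48 to 2.06. Slc7a6 made up 32.7% ± 2.58 of the light-chain sum in leukemia, 19.9% ± 4.61 in Ebf1+/- and 20.6% ± 7.86 in wild type. Wild-type pool 1 reached 29.1%, close to the lowest leukemia at 29.4%, so that the shares nearly met. These are RNA levels and do not measure assembled transporters.

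**Figure D2:**
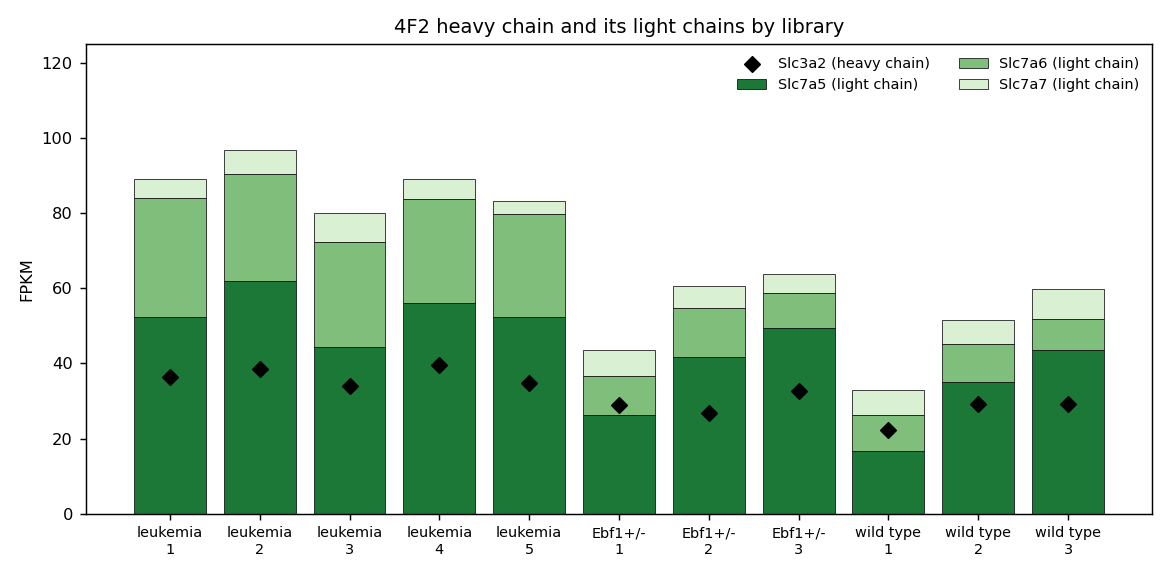
FPKM of the 3 main CD98 light chains, stacked (bars), and of the heavy chain Slc3a2 (diamonds) in each library, with the 5 leukemias at the left, then 3 Ebf1+/- and 3 wild-type libraries. The middle segment, Slc7a6, is 27.4 to 31.8 FPKM in leukemia and 8.18 to 12.9 FPKM in the progenitors, and the diamonds are 34.1 to 39.5 and 22.3 to 32.7 FPKM.

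Of the 3 members of the Slc43 family, 1 rose. Slc43a1 and Slc43a2 carry large neutral amino acids without a heavy chain. Slc43a1 (chromosome 2, 84838850 to 84863594), LAT3, stood at 26.8, 25.2, 33.9, 42.8 and 32.6 FPKM in leukemias 1 to 5, at 17.0, 18.3 and 20.8 in Ebf1+/-, and at 9.59, 14.9 and 18.8 in wild type. All 5 leukemias were above all 6 progenitor libraries (limma log2 fold change 1.13 over wild type, SE 0.22, adjusted p = 0.00362). In both progenitor groups Slc43a1 rose from library 1 to library 3, the order of the platelet sums, whose part in the result was not tested. Slc43a2, LAT4, averaged 15.8 ± 3.52 FPKM in leukemia, 12.8 ± 1.41 in Ebf1+/- and 20.8 ± 4.71 in wild type and was not called in leukemia (log2 fold change -0.38, adjusted p = 0.124), though it was without leukemia 5 (-0.50, adjusted p = 0.0306). Slc43a3, known in human as a nucleobase carrier, was among the most abundant members at 61.4 ± 5.52, 62.6 ± 8.33 and 57.1 ± 7.85 FPKM in the same order, with a 95% interval of -0.15 to 0.36 for its log2 fold change in leukemia.

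The cationic carrier Slc7a1 (CAT1, chromosome 5, 148327410 to 148399904) brings in arginine and lysine. It stood at 20.8, 23.9, 19.0, 21.1 and 18.05 FPKM in leukemias 1 to 5, at 7.29, 15.9 and 17.65 in Ebf1+/-, and at 8.27, 13.5 and 16.6 in wild type. Leukemias were above the progenitors, narrowly over libraries 3 of both progenitor groups (limma log2 fold change over wild type 0.69, SE 0.19, adjusted p = 0.0175). Slc7a1 rose from library 1 to library 3 in both progenitor groups, the order of the platelet sums, whose part in the result was not tested. Without wild-type library 1 the log2 fold change was 0.43 (limma adjusted p = 0.0387). The call was lost with all 3 groups in 1 fit (adjusted p = 0.0623) and with the replicate number as a block (0.0508). Over 16 alternatives the adjusted p ran from 0.00747 to 0.0623. Slc7a4, a relative of the cationic carriers, is named because of its values: it had 0 reads in the 5 leukemias and 161 in the wild-type pools, at least 87.8-fold lower in leukemia at a floor of 3 reads over the group, with 13.3% of its exon bases shared with P2rx6. It stood at 0.909, 0.938 and 2.63 FPKM in Ebf1+/- and at 0.391, 0.783 and 2.498 in wild type, where erythroid and platelet sums were also highest in library 3, whose part in the result was not tested. The floors cover counting error only.

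**Figure D3:**
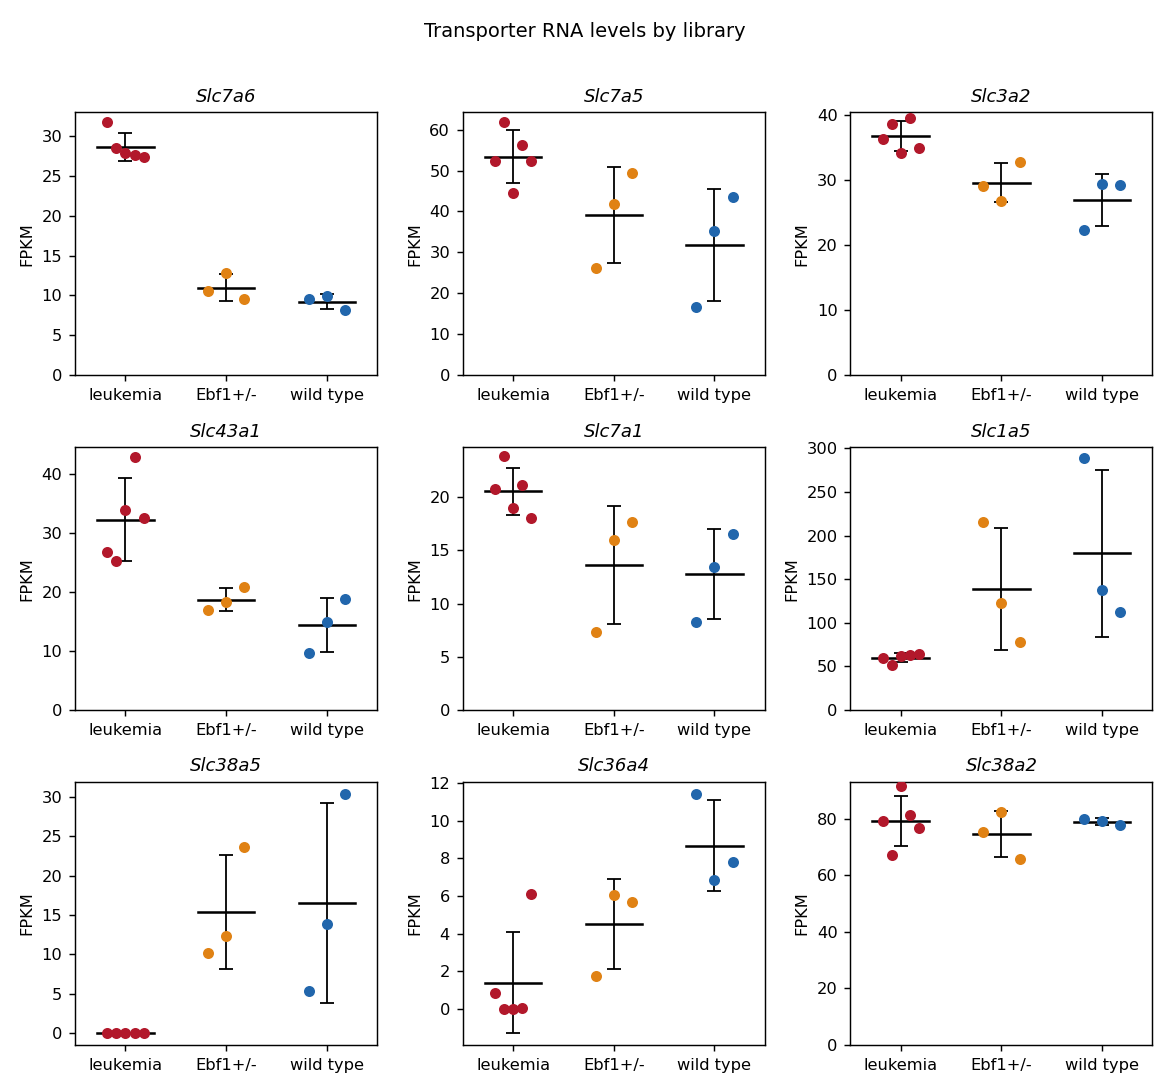
FPKM (vertical axes, from 0 except for error bars that reach below it) of 9 transporters in each library; points are libraries, horizontal lines means and error bars SD, for 5 leukemia, 3 Ebf1+/- and 3 wild-type libraries. Slc7a6 and Slc43a1 sit higher in all leukemias, Slc38a5 is at 0 in all 5, Slc36a4 is at 6.13 FPKM in leukemia 5 and at most 0.85 in the other 4, and Slc38a2 is at 65.9 to 91.6 FPKM throughout.

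Among the sodium-coupled carriers that supply glutamine and small neutral amino acids, the leading one of the progenitors fell. Slc1a5 (ASCT2, chromosome 7, 16781340 to 16798274) stood at 59.4, 51.1, 61.4, 63.5 and 63.8 FPKM in leukemias 1 to 5, at 215, 122.8 and 77.85 in Ebf1+/- libraries 1 to 3, and at 289, 137.5 and 113 in wild-type libraries 1 to 3. The leukemias were alike and all below the progenitors, while the progenitor libraries spread by several fold. Its mean was 59.8 ± 5.21 FPKM in leukemia (SD, n = 5) and 179.8 ± 95.6 in wild type (n = 3), a log2 fold change of -1.45 (SE 0.26, limma adjusted p = 0.00227), called under all 16 alternatives at -1.72 to -1.05. In both progenitor groups Slc1a5 was highest in library 1 and lowest in library 3, the order of the B lineage sums and the reverse of the platelet sums, and their part in the result was not tested. Slc1a4, ASCT1, averaged 1.58 ± 0.47 FPKM in leukemia and 1.07 ± 0.73 in wild type and was not called.

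Slc38a5 (SNAT5, chromosome X, 8271133 to 8280179), which carries glutamine, asparagine and histidine, was at 0 reads in each of the 5 leukemias. It stood at 10.1, 12.3 and 23.7 FPKM in Ebf1+/- libraries 1 to 3 and at 5.32, 13.9 and 30.3 FPKM in wild-type libraries 1 to 3. Against the 1237 reads of the wild-type pools and a floor of 3 reads over the leukemias, it was at least 675-fold lower (limma adjusted p = 0.000181). Among the wild-type pools it was lowest where the erythroid and platelet sums were lowest, in library 1, and highest where they were highest, in library 3, and their part in the result was not tested. Its sodium-coupled relatives Slc38a1 (SNAT1) and Slc38a2 (SNAT2) were abundant and not called. Slc38a2 averaged 79.2 ± 8.80 FPKM in leukemia, 74.6 ± 8.24 in Ebf1+/- and 78.9 ± 1.18 in wild type (95% interval of the log2 fold change in leukemia -0.24 to 0.23), and Slc38a1 48.2 ± 6.14, 39.9 ± 8.62 and 44.0 ± 2.71 FPKM (-0.15 to 0.39). Slc38a8, a carrier known from the eye and named because of its values, had 56 reads in the leukemias and 0 in all 6 progenitor libraries, at least 11.4-fold higher than in wild type, yet at 0.177 to 0.830 FPKM.

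Slc36a1 and Slc36a4, of the family named for proton-coupled amino acid carriers, and the lysosomal Slc38a9 fell in leukemia. Slc36a4 (PAT4, chromosome 9, 15709738 to 15743361) stood at 0.85, 0, 0, 0.04 and 6.13 FPKM in leukemias 1 to 5, at 1.75, 6.08 and 5.66 in Ebf1+/-, and at 11.4, 6.835 and 7.80 in wild type. Leukemia 5 was just above the highest Ebf1+/- library and under the lowest wild-type pool, and the other 4 leukemias were near 0 (limma log2 fold change -2.49, SE 0.62, adjusted p = 0.0104). Slc36a1 (PAT1), which exports small amino acids from lysosomes, averaged 1.70 ± 0.23 FPKM in leukemia and 3.72 ± 0.57 in wild type, with no overlap (-0.80, SE 0.15, adjusted p = 0.0028). Slc38a9, the lysosomal arginine sensor, averaged 1.67 ± 0.35 and 5.05 ± 1.96 FPKM, again with no overlap (-1.14, SE 0.22, adjusted p = 0.00353). Slc38a10 averaged 26.6 ± 3.19 FPKM in leukemia and 34.6 ± 1.69 in wild type (-0.37, SE 0.11, adjusted p = 0.0207), a call lost without wild-type library 3 (adjusted p = 0.0704) or with all groups in 1 fit (0.133). Slc38a7, a lysosomal glutamine exporter, was not called. Leukemias 1, 4 and 5 stood at 6.23, 6.15 and 6.10 FPKM and leukemias 2 and 3 at 2.33 and 1.65, around the wild-type values of 3.31 to 4.31.

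In the Slc6 family, the taurine carrier Slc6a6 was called higher and the serotonin carrier Slc6a4 lower. Slc6a6 stood at 25, 24.7, 18.3, 23.6 and 20.5 FPKM in leukemias 1 to 5, at 11.75, 19.1 and 25.9 in Ebf1+/-, and at 10.9, 14.6 and 18.5 in wild type. Leukemia 3 lay below wild-type library 3, so the ranges touched (limma log2 fold change 0.60, SE 0.17, adjusted p = 0.0185). The call was lost without wild-type library 1 (adjusted p = 0.0681) or 2 (0.0529) and with all groups in 1 fit (0.0624). Slc6a4, a gene of platelets, had 1 read in the 5 leukemias, in leukemia 3, and stood at 2.38, 6.33 and 107 FPKM in Ebf1+/- and at 1.345, 5.43 and 12.3 in wild type (adjusted p = 0.00233). It was highest in the libraries whose platelet marker sums were highest, 4230 FPKM in Ebf1+/- library 3 and 479 in wild-type library 3, and their part in the result was not tested. The glycine carrier Slc6a9 averaged under 1 FPKM in leukemia and in wild type and shares 27.8% of its exon bases with Ccdc24.

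Among the hexose carriers, the common glucose carriers were not called and 3 less abundant members were. Slc2a1 (GLUT1) averaged 9.65 ± 1.66 FPKM in leukemia, 7.68 ± 0.64 in Ebf1+/- and 7.44 ± 1.24 in wild type (log2 fold change in leukemia 0.33, 95% interval -0.01 to 0.68). Slc2a3 (GLUT3) ran from 12.75 to 17.9 FPKM in leukemia, stood at 10.2, 14.2 and 118.5 in Ebf1+/- and at 8.02, 14.1 and 22.3 in wild type, with its peak in Ebf1+/- library 3, the library of the highest platelet sum (4230 FPKM), whose part in this was not tested. Slc2a6 (GLUT6), a carrier of lysosomal membranes, averaged 5.52 ± 0.82 FPKM in leukemia and 2.17 ± 1.13 in wild type with no overlap (1.11, SE 0.24, limma adjusted p = 0.00608), and Ebf1+/- library 1 was above every leukemia at 7.55. Slc2a9, a urate carrier, averaged 4.42 ± 1.20 and 2.59 ± 0.51 FPKM with overlapping ranges (0.58, SE 0.20, adjusted p = 0.0436). That call was lost under 10 of 15 alternatives, among them leaving out any single wild-type library (adjusted p = 0.0918, 0.0598 and 0.143) and leaving out leukemia 1, 3, 4 or 5 (0.0757, 0.0596, 0.0765 and 0.0733). Slc2a8 (GLUT8), an intracellular hexose carrier, fell to 3.48 ± 0.74 FPKM in leukemia, against 6.89 ± 1.13 in wild type (-0.82, SE 0.17, adjusted p = 0.00465).

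Monocarboxylate carriers divided by member. Slc16a1 (MCT1, chromosome 3, 104638668 to 104658462), the main lactate carrier of proliferating cells, was the most abundant member in leukemia at 82.3 ± 21.4 FPKM, against 73.5 ± 10.7 in Ebf1+/- and 97.4 ± 7.47 in wild type. The leukemias spanned 59.2 to 115 FPKM and included the wild-type values of 92.0 to 106 (log2 fold change -0.27, 95% interval -0.70 to 0.15), and without leukemia 4, the highest, the gene was called lower (-0.40, limma adjusted p = 0.0484). Slc16a3 (MCT4), the lactate exporter of glycolytic cells, fell to 0.228, 0.296, 0.281, 0.270 and 0.406 FPKM in leukemias 1 to 5, against 6.335, 3.01 and 12.1 in Ebf1+/- and 3.25, 2.32 and 2.57 in wild type (log2 fold change over wild type -1.51, SE 0.18, adjusted p = 0.000267). The leukemias held 48 reads of it in all, and granulocyte and monocyte sums, which were also lower in leukemia, were not tested for their part in the result. Slc16a10 (TAT1), which carries aromatic amino acids, stood at 1.38, 1.304, 1.33, 1.01 and 1.32 FPKM in leukemia, at 4.53, 4.64 and 11.9 in Ebf1+/-, and at 3.33, 5.505 and 8.99 in wild type (-1.53, SE 0.25, adjusted p = 0.00127). Its progenitor values were highest in the libraries of highest erythroid sum, whose part in the result was not tested.

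Slc16a13 (MCT13), named to account for every called member, rose to 4.21 ± 1.07 FPKM in leukemia, against 1.64 ± 0.14 in wild type (limma log2 fold change 0.96, SE 0.19, adjusted p = 0.00393). Slc16a6 averaged 7.89 ± 1.33 FPKM in leukemia and 5.32 ± 2.47 in wild type and was not called (0.55, adjusted p = 0.0852), but was without wild-type library 3 (0.84, adjusted p = 0.0122); it shares 21.5% of its exon bases with Amz2. Slc16a7 (MCT2) stood at 6.85 FPKM in leukemia 1 and 0.519 to 1.61 in the others, against 0.783 to 1.05 in wild type, and was not called.

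Summed over families, FPKM levels differed from wild type in both directions, which is given without a test. Family 1, nearly all Slc1a5, summed to 61.4 ± 5.22 FPKM in leukemia (SD, n = 5), 139.9 ± 69.4 in Ebf1+/- (n = 3) and 181 ± 94.96 in wild type (n = 3), so that leukemia held 33.9% of the wild-type level. Family 36 summed to 3.35 ± 2.74, 9.21 ± 2.85 and 12.6 ± 2.84 FPKM in the same order, with leukemia 5 at 8.11 and the other leukemias at 1.70 to 3.28. Family 7 went the other way at 108 ± 8.59, 71.8 ± 17.0 and 62.4 ± 19.0 FPKM, or 174% of wild type in leukemia, and its leukemia values of 99.1 to 121 did not meet the progenitor values of 41.8 to 84.7. Families 16, 38 and 43 in leukemia were at 86.4%, 87.8% and 119% of wild type. All 9 families together came to 643.5 ± 35.0 FPKM in leukemia, 751 ± 98.2 in Ebf1+/- and 734 ± 46.0 in wild type. Within that sum Slc1a5 took 9.30% in leukemia, 18.5% in Ebf1+/- and 24.5% in wild type, and the first place in leukemia was held by Slc16a1 (12.8%) and Slc38a2 (12.3%), whose ranges overlapped.

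**Figure D4:**
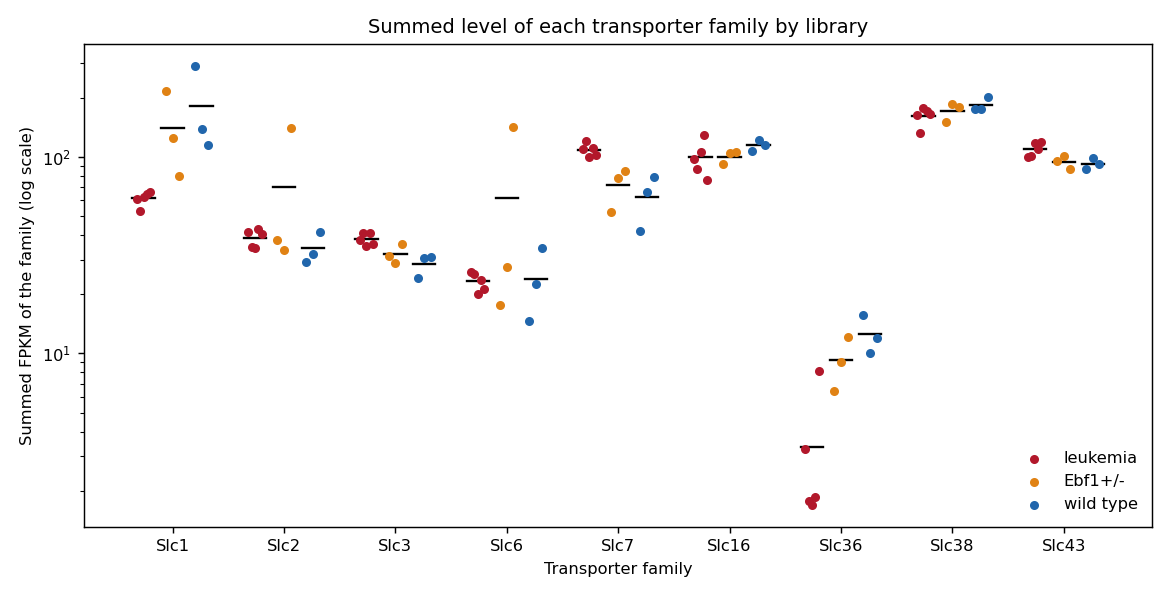
Summed FPKM of each transporter family (log scale, vertical axis) in each library, by group, with black lines at group means; 5 leukemia, 3 Ebf1+/- and 3 wild-type libraries. By group mean, leukemia is the lowest group in families 1, 6, 16, 36 and 38 and the highest in families 3, 7 and 43. In families 6 and 16 the leukemia mean is close to that of another group. Leukemia 5 is at 8.11 FPKM in family 36. The high Ebf1+/- points in families 2 and 6, at 139.8 and 141 FPKM, are library 3.

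The next comparison asked how progenitor B cells with 1 functional Ebf1 copy differed from wild type. Limma called none of the 36 members tested in Ebf1+/- against wild type, and it called 0.0% of all 11167 genes. Before adjustment 2 members passed the 0.05 threshold, where 7.73% of all genes did, and voom on the recovered reads also called 0 members. The ranges of 3 and 3 libraries did not overlap for 5 of the 36 members (13.9%), against 15.6% of all genes. The members of smallest p were Slc43a2 at 11.6, 14.4 and 12.4 FPKM in Ebf1+/-, against 26.2, 17.6 and 18.6 in wild type (log2 fold change -0.64, SE 0.19, adjusted p = 0.501), and Slc16a1 at 70.25, 85.4 and 64.7, against 94.3, 106 and 92.0 (-0.41, SE 0.16, adjusted p = 0.604). Slc16a3 (0.98, SE 0.41, adjusted p = 0.646), Slc36a4 (-0.91, SE 0.39, adjusted p = 0.652), Slc16a7 (0.42, SE 0.23, adjusted p = 0.717) and Slc2a9 (0.39, SE 0.22, adjusted p = 0.719) followed. The lack of a call does not show that these levels were equal, since the 95% interval for Slc1a5 alone ran from -1.47 to 0.73 on the log2 scale. The submitters' processing notes list other alignment tools for the Ebf1+/- libraries than for the rest, and tool and genotype cannot be told apart.

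Set against Ebf1+/- cells, which share 1 of the 2 mutations, the leukemias had 2 members called higher and 8 lower of 32 tested. That is 31.2% of the members, against 21.6% of all 11161 genes tested, 9.31% higher and 12.3% lower. Called changes of at least 2-fold were 1 higher and 6 lower, against 3.2% and 7.32% of all genes. Ranges did not overlap for 12 of the 32 (37.5%), against 29.1% of all genes. This comparison and the first share the leukemia libraries, so their values are given side by side only. The alignment tools listed for leukemia and Ebf1+/- differ too, and cannot be told apart from genotype, leukemic state or tissue. Slc7a6 had a log2 fold change of 1.32 over Ebf1+/- (SE 0.12, limma adjusted p = 0.000187), beside 1.54 over wild type, and Slc43a1 one of 0.74 (SE 0.18, adjusted p = 0.0181), beside 1.13. The Slc43a1 call was lost without Ebf1+/- library 2 (adjusted p = 0.0531), which left 1 member higher. Without that library 732 of all genes were called higher, in place of 1039. Slc38a5 was at least 575-fold lower than in Ebf1+/- (adjusted p = 3.9e-05). The other members called lower were Slc6a4 (-3.79, SE 0.91, adjusted p = 0.0187), Slc16a3 (-2.49, SE 0.34, adjusted p = 0.00147), Slc16a10 (-1.70, SE 0.28, adjusted p = 0.00387), Slc1a5 (-1.08, SE 0.27, adjusted p = 0.022), Slc36a1 (-1.003, SE 0.22, adjusted p = 0.0119), Slc38a9 (-0.69, SE 0.21, adjusted p = 0.043) and Slc2a8 (-0.69, SE 0.19, adjusted p = 0.0324).

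Several of these calls, or the sizes of the changes, depended on single libraries. Slc6a4 kept its call at a smaller size of -2.31 without Ebf1+/- library 3, the one of the highest platelet sum (limma adjusted p = 0.00265). It was not called by voom on the recovered reads (adjusted p = 0.149). Slc1a5 kept its call at -0.70 without Ebf1+/- library 1 (adjusted p = 0.0266) and lost it without leukemia 2 (0.0509) or Ebf1+/- library 2 (0.0573). Slc2a8 lost its call without leukemia 2, 3 or 4 or Ebf1+/- library 1 or 3 (0.0549 to 0.0752), and Slc38a9 without leukemia 1, 2, 3 or 4 or Ebf1+/- library 1 or 2 (0.0687 to 0.0972). Without leukemia 2, 5 members in place of 8 were called lower, and among all genes 1082 in place of 1370. With the replicate number as a block, Slc1a5, Slc2a8, Slc36a1, Slc38a9, Slc6a4 and Slc43a1 lost their calls. Slc7a5 (0.48, adjusted p = 0.116), Slc7a1 (0.64, adjusted p = 0.0973) and Slc3a2 (0.31, adjusted p = 0.0784), called over wild type, were not called over Ebf1+/-. Nor were Slc36a4 (-1.58, limma adjusted p = 0.121), Slc38a10 (-0.27, 0.369), Slc16a13 (0.66, 0.0561), Slc2a6 (0.36, 0.431), Slc6a6 (0.29, 0.39) and Slc2a9 (0.18, 0.587), also called over wild type. The difference between these 2 results was not tested.

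Most of the 77 members were near 0 in these cells. In leukemia 48 averaged under 1 FPKM and 38 under 0.1 FPKM, in Ebf1+/- 42 and 28, and in wild type 44 and 32. At 10 FPKM or more stood 14 members in leukemia, 16 in Ebf1+/- and 14 in wild type. The 45 members not tested in the first comparison include the brain and kidney carriers of the Slc6 family and Slc2a2 and Slc2a4, glucose carriers of liver and muscle, and Slc2a5, a fructose carrier of the gut. Slc2a4, GLUT4, had 0 reads in the leukemias and stood at 0.128, 0.239 and 0.147 FPKM in the wild-type pools.

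Genes that work with these carriers changed in both directions. Embigin (Emb), an escort of monocarboxylate carriers, stood at 76.5, 74.0, 76.7, 71.2 and 90.0 FPKM in leukemias 1 to 5, at 51.25, 29.4 and 58.2 in Ebf1+/-, and at 16.8, 13.8 and 20.6 in wild type. No leukemia met a progenitor library (limma log2 fold change over wild type 2.13, SE 0.13, adjusted p = 1.17e-05), and it was the 1 gene called of 6 tested on a list of 8 transporter partners and regulators, whose median was -0.15 against -0.04 for all genes. Of 18 tested genes of the amino acid response, 6 were called higher and 4 lower (median 0.01, against -0.04 for all genes), where 20.7% and 24.1% of all genes were. Asparagine synthetase (Asns) stood at 0.427, 0, 0.084, 0.040 and 0 FPKM in leukemia, at 16.2, 19.0 and 41.1 in Ebf1+/-, and at 6.60, 26.8 and 51.9 in wild type (-4.35, SE 0.51, adjusted p = 0.00027). Its pools again ran in the order of the erythroid sums in wild type, whose part in the result was not tested. Trib3, a pseudokinase, rose to 11.6 ± 4.30 FPKM in leukemia, against 1.32 ± 0.11 in wild type (2.38, SE 0.26, adjusted p = 0.000193), and Shmt2, the mitochondrial serine hydroxymethyltransferase, to 114 ± 3.85, against 47.7 ± 14.3 (1.29, SE 0.18, adjusted p = 0.000574). Cebpb, a transcription factor high in myeloid cells, fell to 0.936 ± 0.67 FPKM, against 5.99 ± 2.33 (-1.86, SE 0.32, adjusted p = 0.00173), beside the lower granulocyte and monocyte sums, whose part was not tested.

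Of 30 tested genes of lysosomal amino acid sensing, 5 were called higher and 6 lower in leukemia over wild type (median -0.01, against -0.04 for all genes), where 44.8% of all genes were called in either direction. Rragd, a GTPase that tethers mTORC1 to the lysosome, stood at 15.9, 8.455, 15.8, 18.6 and 7.07 FPKM in leukemias 1 to 5, at 2.30, 3.48 and 1.76 in Ebf1+/-, and at 2.63, 3.91 and 2.58 in wild type (1.74, SE 0.30, limma adjusted p = 0.00195). The leukemias formed a high trio and a lower pair, all above the progenitors. Sesn1, a sestrin, was also higher (0.73, SE 0.14, adjusted p = 0.00286). Gatsl2, a relative of the arginine sensor Castor1, fell to 0.550 ± 0.30 FPKM, against 3.13 ± 0.39 in wild type (-1.43, SE 0.21, adjusted p = 0.000755), and Fnip1, a partner of folliculin, to 3.88 ± 0.34, against 7.88 ± 0.94 (-0.86, SE 0.12, adjusted p = 0.000618).

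For glucose, lactate and glutamine use, 5 of 14 tested genes were called higher and 4 lower (median 0.30, against -0.04 for all genes), where 20.7% and 24.1% of all genes were. Pdk1, a pyruvate dehydrogenase kinase, stood at 34.1, 34.6, 31.65, 46.8 and 44.1 FPKM in leukemia, at 12.3, 18.3 and 15.5 in Ebf1+/-, and at 6.10, 11.8 and 12.5 in wild type (1.86, SE 0.22, limma adjusted p = 0.000299). The hexokinase Hk1 fell to 14.8 ± 4.37 FPKM in leukemia, against 46.9 ± 26.4 in wild type (-1.48, SE 0.36, adjusted p = 0.00943). Hk1 in the wild-type pools stood at 22.2, 43.6 and 74.8 FPKM, in the order of the erythroid sums, whose part in the result was not tested. Hk3, a hexokinase of myeloid cells, was at 0.108 ± 0.06 FPKM in leukemia, against 6.11 ± 1.80 (-2.65, SE 0.20, adjusted p = 3.14e-05), and the lactate dehydrogenase subunit Ldhb at 0.089 ± 0.06, against 3.93 ± 2.01 (-2.11, SE 0.25, adjusted p = 0.000284), with granulocyte sums lower in leukemia as given above. Of all 4 lists, no gene was called in Ebf1+/- over wild type.

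**Figure D5:**
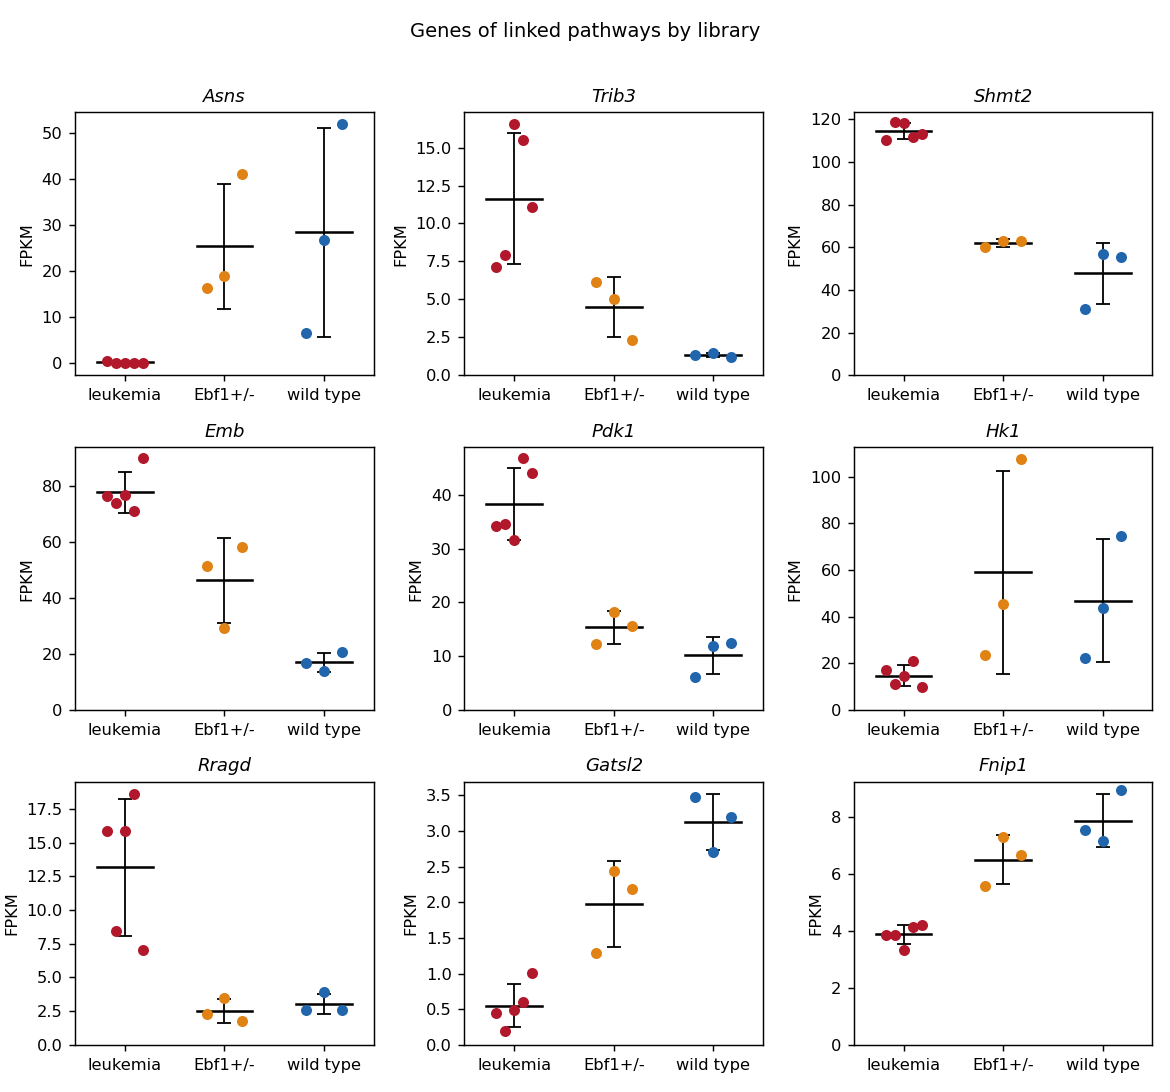
FPKM (vertical axes) of 9 genes that work with the transporters, in each library; points are libraries, lines means and error bars SD, for 5 leukemia, 3 Ebf1+/- and 3 wild-type libraries. Emb, Pdk1, Shmt2, Trib3 and Rragd are higher in all 5 leukemias than in any progenitor library, and Asns is at most 0.43 FPKM in leukemia.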

How the data were processed

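RNA was sequenced from 5 leukemia, 3 Ebf1+/- and 3 wild-type mouse libraries. The authors deposited 1 table of FPKM values for 23071 gene identifiers, of which 27 are date serial numbers as spreadsheets make from symbols and were not named. Per the submitters' processing notes, BWA 0.7.12 is listed for the leukemia and wild-type libraries and TopHat2 with Cufflinks for the Ebf1+/- libraries, on mm10 (GRCm38). The sources used here do not give the counter, annotation or strand setting, so reads of overlapping genes and close paralogs cannot be told apart. FPKM values came out as whole reads within 1e-06 read for all 17380 genes above 0 once whole library totals and gene lengths were solved for. Library totals were 8506680 to 15313920 reads.

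Limma 3.58.1 (R 4.3.3) was run on log2(FPKM + 1) for genes averaging 1 FPKM or more in the 2 groups compared, with a two-sided trended eBayes fit of those groups alone. P-values were adjusted by Benjamini-Hochberg over all genes tested, and an adjusted p under 0.05 was a call. Such folds understate the change of genes with low values. The script was tested on simulated data first. Floors are 3 reads over a group. Locations are from GENCODE M21 (22014 symbols, 95.4%, matched) and promoters from RefSeq GRCm38.p6. Matplotlib 3.10.9 drew the figures, and pandas 2.3.3 and NumPy 2.4.6 made the tables under Python 3.11.15.

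The members, gene lists, marker lists and tests were chosen with earlier results of these data known. The level of 1 marker gene is not reported here. Named were a list of carriers of known role, up to 8 highest and 8 lowest called members with at least a 2-fold change and no overlap (6 each over Ebf1+/-), the 6 members of smallest p in Ebf1+/- over wild type, the most abundant member of each family, and up to 4 called genes of each other list. Slc16a13 and Slc38a10, named to account for every call, and Slc7a4, Slc7a8, Slc2a4 and Slc38a8 where the rule does not cover them, were named after their values were seen.

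Replicate numbers of Ebf1+/- and wild-type libraries deviated together from their group means (r = 0.652, 0.325 and 0.69 for numbers 1 to 3), all above 0.1. The comparison given in the Results was nevertheless unpaired, and the replicate block was run only as an alternative. The labels state no shared day, and deviations from a mean of 3 are not independent. With the replicate as a block the Ebf1+/- comparison again called 0 members and 0 of all 11167 genes. Before adjustment 1800 genes then passed the 0.05 threshold, against 863 without the block. No 2 libraries agreed within sampling noise. Alternatives were a pseudocount of 0.1 FPKM, no filter or one at 5 FPKM, median-ratio or quantile scaling, 1 fit of the 3 groups, voom on the recovered reads, the replicate block, and leaving out each library.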

Additional observations from a re-analysis of the deposited data

Results flagged for a closer look

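Among 44 genes examined for a leukemia library far from the other 4, 7 had one whose gap to its neighbour exceeded 0.71 of the whole range. Normally distributed values pass that cut about 1 in 20 times. Values at or near 0, as for Slc36a4, Asns and Slc6a4, need not follow that rate, so no excess is claimed. Slc36a4 was highest in leukemia 5, at 6.13 FPKM against at most 0.85 in the others (gap over range 0.861). Slc16a7 was highest in leukemia 1, at 6.85 FPKM (0.828), and so was Slc7a6, at 31.8 FPKM (0.744), and Asns, at 0.427 FPKM (0.804). Slc16a10 was lowest in leukemia 4, at 1.01 FPKM (0.791). The values for Slc6a4, highest in leukemia 3 at 0.0293 FPKM (1.0), and Ldhb, highest in leukemia 3 at 0.185 FPKM (0.722), rest on few reads, 1 read in the case of Slc6a4. Leukemia 1 was the least deep library, at 8506680 reads.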

How the results depend on the processing

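In leukemia over wild type, the number of members higher was 9, and 4 with the replicate block. Genes higher in all were 2267 of 10968, and 1658 with the block. The number of members lower was 10 of 32 tested, 20 of 73 with no filter on low values and 3 of 18 with a filter at 5 FPKM. Genes lower in all were 2647 of 10968, 3619 of 16874 and 2053 of 8401. In leukemia over Ebf1+/-, the number higher was 2 of 32 tested, 4 of 75 with no filter, 4 with quantile scaling and 1 with the block. Genes higher in all were 1039 of 11161, 976 of 17005, 1568 of 11161 and, with the block, 350 of 11161. The number lower was 8 of 32, 14 of 75 with no filter, 3 of 20 at 5 FPKM and 3 with the block. Genes lower in all were 1370 of 11161, 2148 of 17005, 881 of 8492 and, with the block, 594 of 11161. The filter changes which members are tested. Leukemia shared only replicate numbers with the other groups (r from -0.136 to 0.0716), so the block tests no pairing there. Leaving out each library gave 7 to 9 members higher and 8 to 11 lower over wild type, 1 to 3 and 5 to 9 over Ebf1+/-, and 0 to 0 in both directions for Ebf1+/- over wild type. Among all genes the same fits gave 1746 to 2135 higher and 2048 to 2590 lower over wild type. Leukemia over Ebf1+/- gave 690 to 1224 and 1007 to 1416, and Ebf1+/- over wild type 0 to 4 and 0 to 1. Uncalled Slc38a2 turned sign with quantile scaling (0.008) and median-ratio scaling (0.029) and ran from -0.056 to 0.055 when libraries were left out, and uncalled Slc2a3 ran from -0.219 (without wild-type library 1) to 0.465; the cause was not tested. Quantile scaling moved the median of all genes over Ebf1+/- to 0.08, against -0.03 as deposited, and the calls to 1568 higher and 1120 lower, against 1039 and 1370. The genes called over wild type and followed through the alternatives were 32, the 19 called members and the named genes of other lists. Of these 32, 26 kept their call and direction under every alternative that tested them. Those that did not were all members: Slc2a9, Slc3a2, Slc6a6, Slc7a1, Slc7a5 and Slc38a10. Of 10 members called over Ebf1+/-, 4 kept theirs. A pseudocount of 0.1 and voom gave larger falls for genes near 0 in leukemia, such as Slc36a4 (-4.48 and -5.68, against -2.49) and Slc16a3 (-2.83 and -3.11, against -1.51). Depth limits members under about 0.1 FPKM, which rest on few reads.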
